A study of Mus musculus with 2 samples.

Results

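The genes described here are 36 that build the contractile unit of skeletal muscle, tell its fiber types apart or supply it with calcium and energy. They were taken from a written list and not from their levels. All 36 were among the 19169 genes of the table, and they comprised 6 myosin heavy chains, 5 myosin light chains, 4 actins and alpha-actinins, 7 troponins and tropomyosin, 4 giant and thick filament proteins, 4 Z-disc proteins and 6 genes of calcium handling and energy. Single cells came from gastrocnemius muscle of male mice on day 14 (D14) after cardiotoxin (CTX), a snake venom toxin that lyses muscle fibers. The WT-CTX library came from C57BL/6J WT mice and the GSDME-KO-CTX library from mice lacking Gsdme, the gene of the pore-forming protein gasdermin E, and both groups had received CTX. There was 1 library per genotype, from 5 mice each, and whether the mice were pooled was not stated. Differences between genotypes therefore have no test here. Each value stands for 1 library, and all 95% intervals are exact and cover counting error only. Gsdme RNA did not tell the libraries apart, at 225 UMIs (unique molecular identifiers, each a captured RNA molecule) or 5.03 UMIs per 1000000 (CPM) in the library labelled WT and 237 UMIs or 4.65 CPM in the library labelled KO. WT and KO below mean the libraries with those labels.

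In the sarcomere, myosin thick filaments pull on actin thin filaments, and calcium released into the fiber frees the actin through troponin and tropomyosin. Fiber types are told apart by their myosin heavy chain: Myh7 in slow oxidative fibers, Myh2 in fast oxidative fibers, Myh1 in an intermediate fast type and Myh4 in the fastest, glycolytic type. Myh3 (embryonic) and Myh8 (perinatal) are made in the developing muscle and again in newly formed fibers after injury. Troponins and light chains also come in slow and fast forms, and the mouse gastrocnemius is a mostly fast muscle. Intact fibers are too long to enter a droplet, so that mature muscle was sampled only as whatever passed the strainer and was caught with a barcode.

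The fast myosin heavy chains are near copies of each other, which bears on how well their RNA can be told apart. Myh3, Myh2, Myh1, Myh4 and Myh8 lie in this order on the plus strand of chromosome 11 (GRCm38), from 67078300 at the start of Myh3 to 67308634 at the end of Myh8, while Myh7 lies on chromosome 14. Over the coding sequence Myh1 and Myh2 were 91.0% identical, Myh1 and Myh4 90.1%, Myh2 and Myh4 88.1%, and Myh4 and Myh7 77.4%. The kit reads RNA from its 5′ end. Over the first 300 bases of the transcripts, identity was 64.2% for Myh1 and Myh2, 41.1% for Myh1 and Myh4, and 42.7% for Myh2 and Myh4. The transcripts used have 27 bases before the coding sequence in Myh4, 146 in Myh1 and 125 in Myh2. These windows thus cover different parts of the genes, and low identity over them does not show that reads can be told apart. The first 60 coding bases of 4 of them (GENCODE vM21 transcripts) are shown to place the shared stretch, with capitals for bases that differ from Myh4 at the same place.
Myh4: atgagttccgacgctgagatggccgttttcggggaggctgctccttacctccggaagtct
Myh1: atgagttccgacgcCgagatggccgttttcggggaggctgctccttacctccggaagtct
Myh2: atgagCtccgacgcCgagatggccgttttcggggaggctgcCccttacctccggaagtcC
Myh3: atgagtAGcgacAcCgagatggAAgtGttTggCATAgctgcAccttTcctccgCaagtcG
Myh1 differed from Myh4 at 1 of these bases, Myh2 at 4 and Myh3 at 16. Reads that cover none of the differing bases cannot be assigned to 1 of the fast genes, and how many were lost or shared was not tested.

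Promoter windows, of the 250 bases before each start, were searched for motifs. Of the 36 genes, 30 matched the RefSeq table (GRCm38.p6), with 37 start sites. CArG boxes, the binding motif of serum response factor, were in 16.2% of these windows against 1.47% of all 32851 windows of the same length, both strands searched, and the genes that held one were Acta1, Actc1, Ldb3, Myh4 and Myl3. The motif of the MEF2 factors was in 16.2% against 2.92%, in Myh1, Myh4, Myh8, Pvalb, Ttn and Xirp2. The E-box CAGCTG, a site type of myogenic factors such as MyoD and myogenin, was in 35.1% of windows of these genes and in 4271 of the 32851 windows. Shares were nearer to each other for the last pair of motifs. The MCAT element, spelled CATTCC, was in 24.3% of the windows of the 30 genes against 12.6% of all windows, while the TATA box, which places the start of transcription and was searched as TATAAA, was in 21.6% against 12.4%. The 120 bases before the start of the most abundant actin gene and of the main myosin gene in these cells are shown because both hold a CArG box and a TATA box. Acta1 lies at chr8:123894776-123894895 on the minus strand and Myh4 at chr11:67237692-67237811 on the plus strand. Capitals mark matches to the motifs named above other than MEF2.
Acta1: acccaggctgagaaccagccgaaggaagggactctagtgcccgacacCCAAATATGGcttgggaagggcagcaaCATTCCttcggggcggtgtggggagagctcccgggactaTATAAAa
Myh4: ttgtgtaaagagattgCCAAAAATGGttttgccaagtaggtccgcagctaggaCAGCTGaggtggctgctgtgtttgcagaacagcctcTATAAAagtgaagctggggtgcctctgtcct
A match is a matter of letters and does not show that a factor binds.

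Cells were clustered without the 36 genes, and classes were named by resemblance to marker lists that hold none of them. The mature-muscle-like class held 21 WT and 61 KO cells, or 0.331% of WT cells and 0.862% of KO cells. All 14 mature muscle markers were detected in it in both libraries, at a summed 18700 CPM in WT and 15900 CPM in KO. It was the class in which the 36 genes were abundant, with 35.9% of all UMIs in WT (95% CI, 35.4 to 36.5) and 33.4% in KO (33.2 to 33.6). In muscle stem cell (MuSC)-like cells they took 0.182% of UMIs in WT and 0.202% in KO. In fibro-adipogenic progenitor (FAP)-like cells they took 0.0287% and 0.0376%, in endothelial-like cells 0.0993% and 0.0661%, and in macrophage-like cells 0.0697% and 0.0494%. Over all cells of a library their share was 0.109% in WT and 0.285% in KO. In those all-cell sums 14 of 35 genes tested were at least 2-fold higher in KO (3.30% of all genes) and 2 lower (2.79%), Myh2 and Myl3. The larger share of mature-muscle-like cells in KO stood beside this, and its part was not tested.

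**Figure D1:**
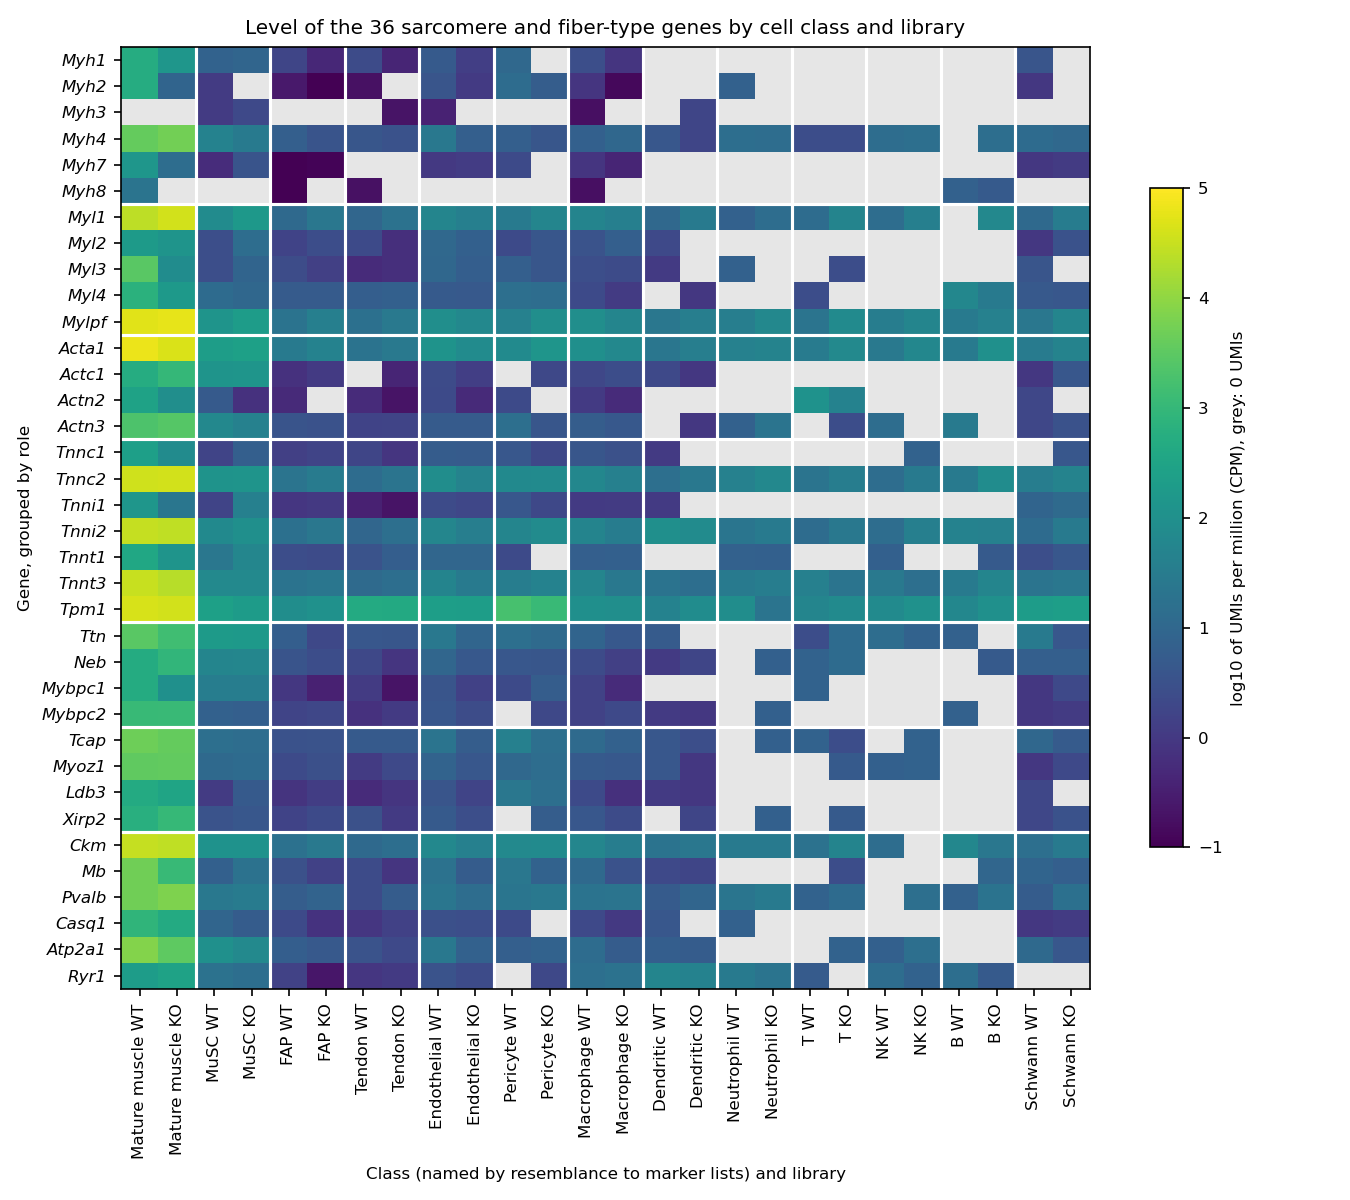
Level of each of the 36 genes (rows, grouped by role) in each class of each library (columns), as log10 of CPM, with grey for 0 UMIs. The mature-muscle-like columns hold the high values of nearly every row, while Tpm1 is also high in pericyte-like cells (1800 CPM in WT) and Myh3 and Myh8 are grey in most columns.

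The mature-muscle-like cells were few and unequal, and this bears on every value summed over them. Their median depth was 775 UMIs in WT and 2573 in KO, and 15 cells of each library had under 1000 UMIs. The deepest WT cell, with 19720 UMIs, held 40.4% of the UMIs of its class, and the deepest KO cell, with 38878 UMIs, held 11.1%. The share of the 36 genes in a single cell ran from 5.55% through a median of 27.9% to 47.8% in WT and from 4.99% through 36.5% to 59.0% in KO. FAP markers summed to 983 CPM in these WT cells (7 of 8 detected) and to 4050 CPM in the KO cells (8 of 8), pericyte markers to 491 and 118 CPM, and MuSC markers to 40.9 and 77.4 CPM. The part of these markers and of depth in the differences between libraries was not tested. Across the series, 6354 WT and 7078 KO cells held 44758518 and 50930010 UMIs, 4 barcodes occurred in both libraries, and 1297 WT and 1282 KO cells lay in clusters that got no name.

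The leading RNAs of the mature-muscle-like cells were those of fast fibers, and the same 8 genes stood highest in both libraries. UMIs count molecule ends, so levels of genes are set side by side without division by length. Acta1, skeletal alpha-actin, was at 65100 CPM in WT and 45800 CPM in KO, and Mylpf, the fast regulatory light chain, at 54400 and 60900 CPM. Tpm1, a tropomyosin, followed at 42900 and 39400 CPM. These 3 led the list in both libraries, with Acta1 first in WT and Mylpf first in KO. The fast troponins Tnnc2, Tnni2 and Tnnt3, the light chain Myl1 and the creatine kinase Ckm lay between 22700 and 38900 CPM in both. Slow and developmental forms were far below. The 6 slow genes (Myh7, Myl2, Myl3, Tnnc1, Tnni1 and Tnnt1) summed to 199 UMIs in WT and 160 in KO, against 9694 and 72447 UMIs of 13 fast genes.

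Myh4 was the main myosin heavy chain in both libraries. It made up 75.7% of 243 myosin heavy chain UMIs in WT (69.8 to 81.0) and 96.9% of 1879 in KO (96.0 to 97.6). Myh2 made up 10.7% in WT and 0.16% in KO, Myh1 10.3% and 2.66%, and Myh7 2.88% and 0.266%. The order after Myh4 thus began with Myh2 and Myh1 at like shares in WT, whose intervals overlapped (7.11 to 15.3 and 6.77 to 14.8), and with Myh1 alone in KO. The injury-induced forms were nearly missing at D14. Myh3 had 0 UMIs in both libraries, which allows up to 1.51% of myosin heavy chain UMIs in WT and 0.196% in KO, and Myh8 had 1 UMI in WT and 0 in KO.

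Single cells mostly used 1 myosin heavy chain. At least 5 such UMIs were found in 11 of 21 WT cells and 47 of 61 KO cells. Myh4 led in 7 of the 11 WT cells and 43 of the 47 KO cells, and in 6 and 40 of these no other heavy chain was seen. Myh1 led in 1 WT cell and 4 KO cells, Myh2 in 2 WT cells and Myh7 in 1 WT cell. In the 4 KO cells led by Myh1 its share was lower, at a median of 68.9% and a minimum of 55.6%, the rest being Myh4 and Myh2, whereas the WT cell had 95.2%. No KO cell with at least 5 such UMIs was led by Myh2 or Myh7, but 2 KO cells below that depth had Myh7 UMIs alone, 4 and 1 of them.

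Among cells with a named leading heavy chain, the slow share was highest in 1 WT cell led by Myh7 and next in 1 led by Myh2. In the WT cell led by Myh7 (1018 UMIs) they made up 76.9% of slow and fast UMIs (63.2 to 87.5). That cell held 17 UMIs of Tnnt1 and 8 of Tnnc1 (slow troponins T and C), 7 of Myh7, 5 of the slow light chain Myl2, 3 of the slow inhibitor Tnni1 and 13 of the oxygen-binding myoglobin gene Mb. It held 0 UMIs of Mylpf and Tnnt3, 1 of Acta1 and 73 of Ttn, the giant spring protein titin. The 2 WT cells led by Myh2 held 8.02% slow UMIs (6.83 to 9.35), and 145 of their 150 slow UMIs were Myl3, the slow essential light chain. They also held Mb at 15700 CPM and 0 UMIs of Actn3, Mybpc2 and Pvalb, genes of fast glycolytic fibers. One cell had 12666 UMIs and the other 485, so these values mostly describe the deeper cell, which held all 145 UMIs of Myl3. In cells led by Myh4 the slow share was 0.0147% in WT (1 slow and 6813 fast UMIs) and 0.00294% in KO (2 slow and 68062 fast UMIs). Mb was at 37.1 CPM in those WT cells and 842 CPM in those KO cells, and at 14500 CPM in the WT cell led by Myh1 and 3930 CPM in the 4 KO cells led by Myh1. Of the 199 slow WT UMIs, 190 sat in 2 cells. Of the 160 slow KO UMIs, 156 sat in 3 cells with too few myosin heavy chain UMIs to name a leader, which held 12, 68 and 76. Over all KO cells, 3 had more than 5% slow UMIs, with a maximum of 100%, so KO cannot show whether slow genes went with the leading heavy chain.

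**Figure D2:**
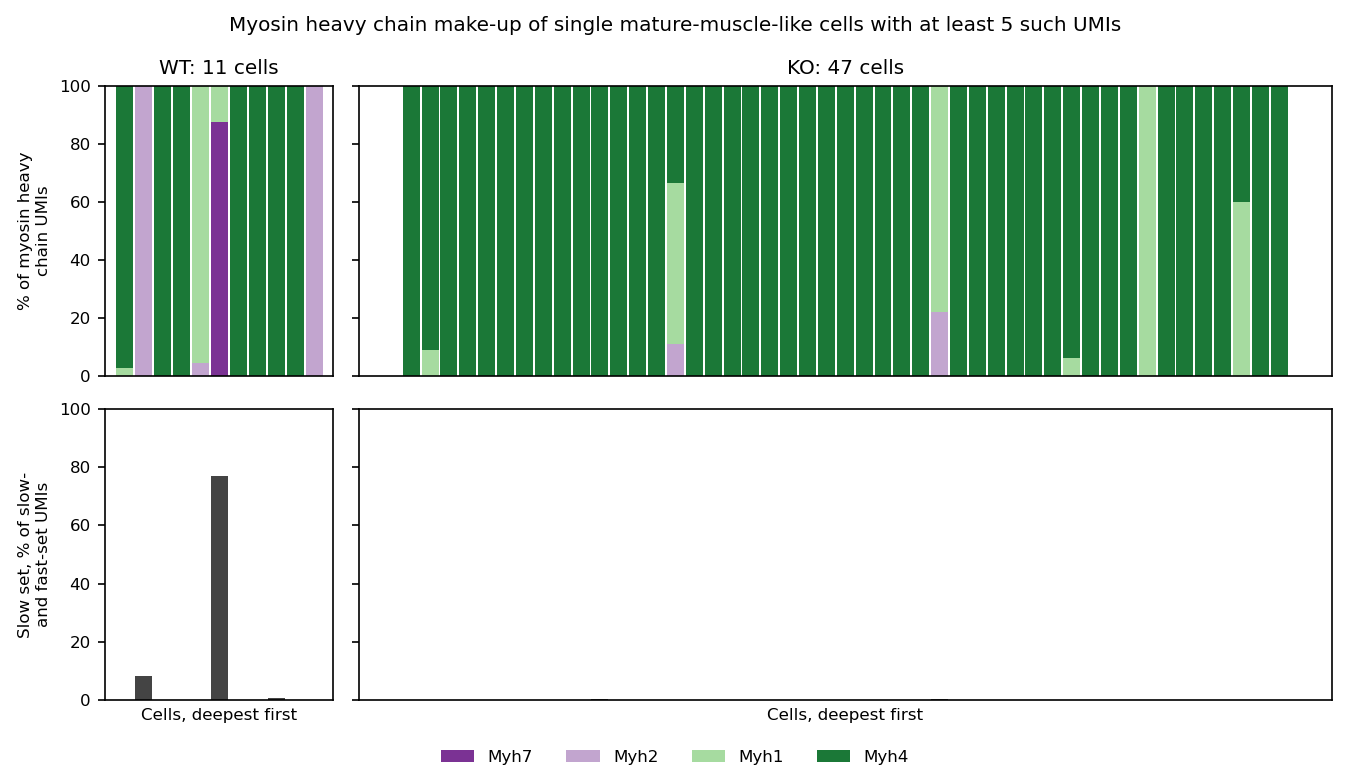
Top, share of each of 4 myosin heavy chains (% of myosin heavy chain UMIs) in every mature-muscle-like cell with at least 5 such UMIs, deepest first, 11 in WT (left) and 47 in KO (right). Bottom, share of the slow genes (% of slow and fast UMIs) in the same cells; the WT cell led by Myh7 reaches 76.9%, the deep WT cell led by Myh2 8.06%, and all KO cells lie near 0.

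KO was compared with WT within the mature-muscle-like cells to see whether contractile genes differed where muscle itself was captured. Summed over all cells, 5 of the 6 slow-set genes (all but Myl2) were at least 2-fold lower in KO, while 10 of the 13 fast-set genes were within 2-fold. Several of the lower ratios were carried by single WT cells, as given below. Of the 34 genes with at least 10 UMIs over both libraries, 0 were at least 2-fold higher in KO, against 13.3% of all 3531 genes tested, and 13 were at least 2-fold lower, against 12.4%. On the log2 scale the median KO/WT ratio was -0.49 for the 34 genes and -0.05 for all genes, with no test. The remaining 2 genes, Myh3 and Myh8, were under the minimum. Per 100 fast UMIs, slow UMIs came to 2.05 in WT and 0.221 in KO, a log2 ratio of -3.22 (-3.53 to -2.91). This ratio rests on the few cells with slow UMIs described above.

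Among the heavy chains, Myh4 was at 3770 CPM in WT and 5220 CPM in KO (log2 ratio 0.47, 0.25 to 0.70). Myh1 was at 512 and 143 CPM (-1.84, -2.56 to -1.08), and 20 of its 25 WT UMIs were in 1 cell. Myh2 was at 532 and 8.6 CPM (-5.95, -8.32 to -4.25), from 26 and 3 UMIs. Myh7 was at 143 and 14.3 CPM (-3.32, -5.32 to -1.45), with all 7 WT UMIs in 1 cell. Summed over all cells, the heavy chain of the fastest fibers was thus the only one of the 4 that was higher in KO, and by less than 2-fold. Without the second deepest WT cell, which held 0 UMIs of Myh4, its ratio was 0.04 (-0.18 to 0.26). Among the light chains, Myl1 was at 25300 and 38900 CPM (0.62, 0.54 to 0.71) and Mylpf at 54400 and 60900 CPM (0.16, 0.11 to 0.22). Myl3 was at 2990 and 83.1 CPM (-5.17, -5.80 to -4.59), and Myl4, an embryonic and atrial light chain, at 676 and 178 CPM (-1.93, -2.56 to -1.27). Myl2 had only 9 and 45 UMIs, and its interval spanned 0 (-0.51, -1.56 to 0.70).

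In the thin filament the slow troponins were past 2-fold and the fast ones were not. Tnnc1, the slow troponin C, was at 246 CPM in WT and 80.3 CPM in KO (log2 ratio -1.61), Tnni1 at 143 and 22.9 CPM (-2.64) and Tnnt1 at 368 and 129 CPM (-1.51, -2.33 to -0.64). Their fast counterparts Tnnc2 (0.10), Tnni2 (-0.17) and Tnnt3 (-0.46) stayed within 2-fold, as did Tpm1 (-0.12). For Tnnt1, 17 of 18 WT UMIs were in 1 cell, the one led by Myh7, and without it the ratio was 2.63. Acta1 was lower in KO (-0.51, -0.56 to -0.45) and Actc1, the cardiac actin of immature fibers, was at 512 CPM in WT and 975 CPM in KO (0.93, 0.34 to 1.58). Actn3, the alpha-actinin of fast fibers, was at 2130 and 2650 CPM (0.31, 0.02 to 0.62), and the other alpha-actinin, Actn2, at 287 and 91.7 CPM (-1.64, -2.59 to -0.62) from 14 and 32 UMIs.

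Of the giant and thick filament proteins, Ttn was at 2990 CPM in WT and 1440 CPM in KO (log2 ratio -1.06, -1.33 to -0.78), with 73 of 146 WT UMIs in the cell led by Myh7. Neb, which runs along the thin filament, was at 491 and 897 CPM (0.87, 0.27 to 1.53). Mybpc1, the slow myosin-binding protein C, was at 491 and 100 CPM (-2.29, -3.08 to -1.48), and the fast form Mybpc2 at 1130 and 1160 CPM (0.04, -0.37 to 0.47). Titin and the slow binding protein were thus the members of this group past 2-fold. The Z-disc genes were all within 2-fold. Tcap, which caps titin, was at 4630 and 3860 CPM (-0.26), Myoz1 at 3360 and 3650 CPM (0.12), Ldb3 at 471 and 327 CPM (-0.53, -1.18 to 0.19), and Xirp2, an actin-binding repeat protein, at 614 and 1050 CPM (0.77, 0.23 to 1.36).

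In calcium handling and energy, Mb was at 4890 CPM in WT and 1110 CPM in KO (log2 ratio -2.14, -2.38 to -1.91) and Atp2a1, the calcium pump of fast fibers, at 7640 and 3330 CPM (-1.20, -1.37 to -1.02). The calcium store protein Casq1 was at 839 and 470 CPM (-0.84, -1.34 to -0.31). Pvalb, the calcium buffer of the fastest fibers, was at 5060 and 6890 CPM (0.45, 0.26 to 0.64), and Ckm at 29200 and 26500 CPM (-0.14). For Ryr1, the calcium release channel, 10 and 101 UMIs gave an interval that spanned 0 (0.50, -0.44 to 1.60). This group therefore held calls only for myoglobin and the pump.

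Single WT cells carried several of these ratios. The second deepest WT cell (12666 UMIs, led by Myh2) held 145 of 146 WT UMIs of Myl3, 201 of 239 of Mb, 18 of 26 of Myh2 and 107 of 226 of Tcap. Without it the log2 ratio was 1.59 for Myl3 (-1.0 to 6.94) and 0.08 for Mb (-0.41 to 0.60), so neither was lower in KO, while Myh2 stayed at -4.68. Of the fast genes, Myh4 was then at 0.04, Pvalb at 0.01, Actn3 at -0.12 and Mylpf at -0.04, each with an interval that spanned 0. Myl1 stayed higher in KO, at 0.38 (0.29 to 0.47). The deepest WT cell held 258 of 373 WT UMIs of Atp2a1, 34 of 41 of Casq1 and 1844 of 3182 of Acta1. Without the deepest cell of each library the ratio was -0.14 for Atp2a1, 1.04 for Casq1 and 0.07 for Acta1, 5 genes were at least 2-fold higher in KO (7.76% of all genes), and the median was -0.02. The slow genes sat in another cell. Without the WT cell led by Myh7, the log2 ratio was 2.63 for Tnnt1, -0.06 for Tnnc1 and -0.09 for Ttn, Myh7 was left with too few UMIs, and 9 genes were lower (12% of all genes) and 2 higher (13.7%), with a median of -0.15. Without the WT cell led by Myh1, the ratio of Myh1 was 0.45. Actn2, Myh2, Myl4, Tnni1 and Mybpc1 were at least 2-fold lower in all 4 of these leave-outs. Those were the deepest cell of each library, and the 3 other WT cells in turn. Before any cell was left out these genes had 7 to 33 WT UMIs each. Without the second deepest WT cell, Tnni1 had 6 WT UMIs, Actn2 7 and Myh2 8, and the interval of Actn2 spanned 0 (-1.08, -2.28 to 0.35). With every cell weighted alike (the mean over cells), 7 of the 34 genes were at least 2-fold lower (30.3% of all genes) and the median turned to 0.19. Among cells led by Myh4 alone, Atp2a1 was at 11600 CPM in 7 WT cells and 3290 CPM in 43 KO cells, Acta1 at 82400 and 45500 CPM, and Myh4 itself at 6380 and 5590 CPM. The deepest WT cell held 19720 of the 26944 UMIs of those 7 cells, and the 6 others gave 7610 CPM for Atp2a1, 52200 CPM for Acta1 and 19400 CPM for Myh4.

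**Figure D3:**
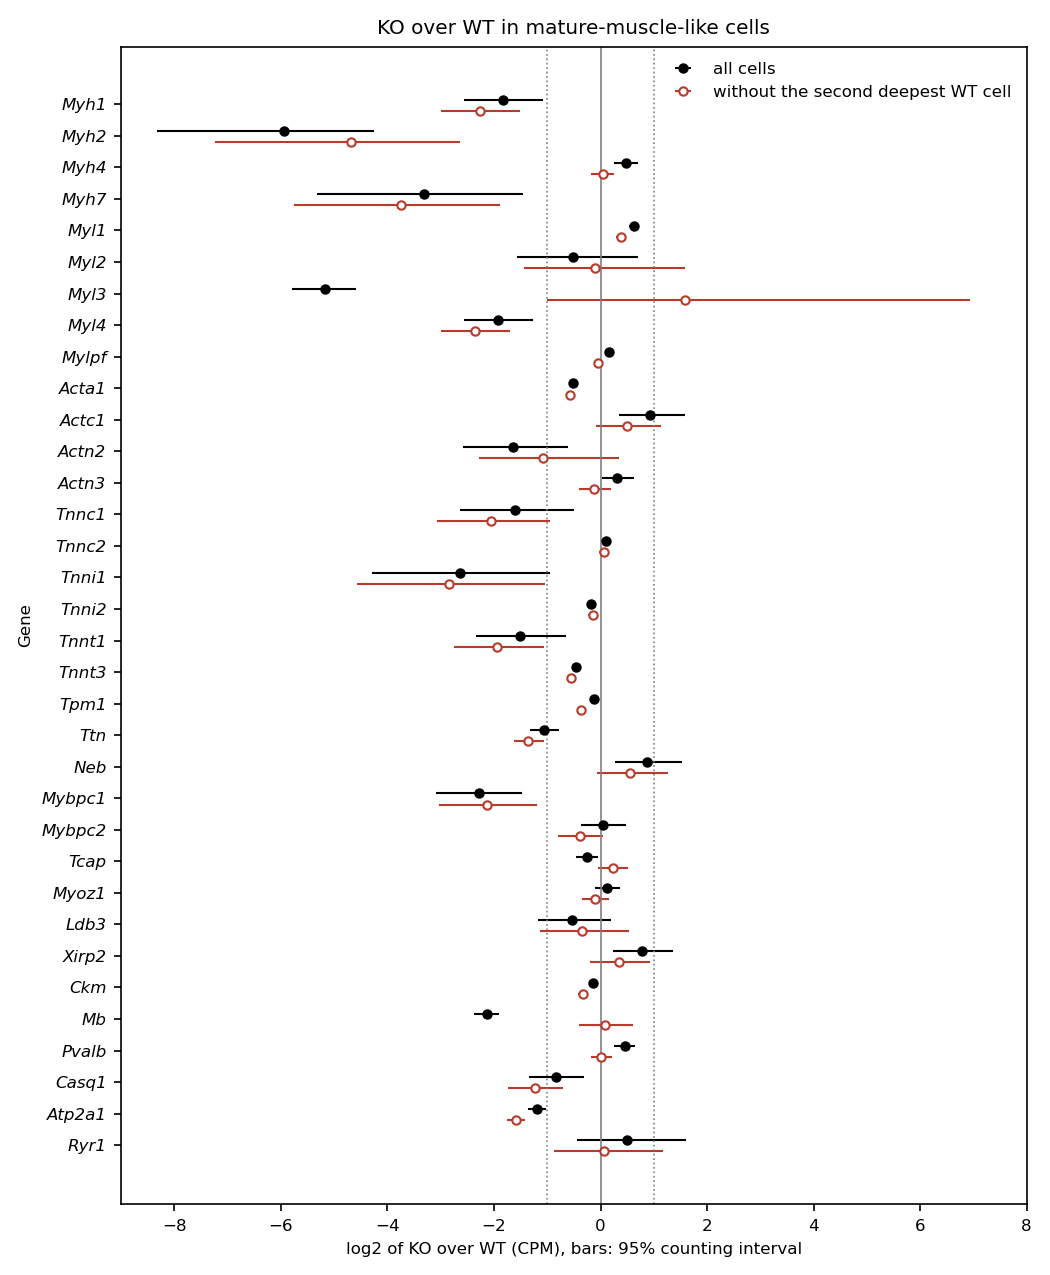
Log2 ratio of KO over WT (CPM of summed UMIs) of the 34 genes tested in mature-muscle-like cells, with 95% counting intervals, for all cells (black) and without the second deepest WT cell (red). Dotted lines mark 2-fold; Myl3 and Mb move from -5.17 and -2.14 to 1.59 and 0.08, while Myh2 is at -4.68.

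A list of other sarcomere and calcium-handling genes, 39 of them in the table, was read beside these. Of 31 tested in mature-muscle-like cells, 4 were at least 2-fold higher in KO (13.3% of all genes) and 7 lower (12.4%). Their median log2 ratio was -0.42. Ankrd2, a stretch-response gene of slow fibers, was at 328 CPM in WT and 2.87 CPM in KO, and Myoz2, the Z-disc protein of slow fibers, at 368 and 25.8 CPM. A single cell held 15 of the 16 WT UMIs of Ankrd2 and 17 of the 18 of Myoz2. The thin-filament leiomodins Lmod2 (-2.39) and Lmod3 (-1.48), the LIM proteins Csrp3 (-1.19) and Fhl1 (-1.50), and Klhl40 (-1.47) were also lower. Sln, which inhibits the calcium pump, was at 143 CPM in WT and 1290 CPM in KO (3.17, 2.12 to 4.50), and 1 KO cell held 408 of its 451 UMIs. Atp2a2 (1.49), Jph2 (1.15) and Smyd1 (1.04) were also higher, on 1 to 6 WT UMIs each.

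MuSC-like cells numbered 243 in WT and 241 in KO. Among the named classes, their share of UMIs from the 36 genes was next highest in KO, at 0.202% against 0.185% in pericyte-like cells. In WT it was 0.182%, below the 0.242% of pericyte-like cells. Without Tpm1 it was next highest in both libraries, at 0.156% in WT and 0.183% in KO, against 0.0612% and 0.0705% in pericyte-like cells. All 7 MuSC markers were detected in both libraries, at a summed 1140 and 1790 CPM, FAP markers at 1810 and 1580 CPM, and mature muscle markers at 169 and 129 CPM. Of the slow set, 5 genes were at least 2-fold higher in KO here, on few UMIs. Of 31 genes tested, 6 were at least 2-fold higher in KO, against 7.53% of 10223 genes, and 1 was lower, against 5.33%. The median log2 ratio was 0.11 for the 31 genes and 0.05 for all genes.

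Of the 6, 5 were slow-set genes. Tnni1 had 3 UMIs in WT and 57 in KO (log2 ratio 4.59, 2.97 to 6.91), and 53 of the 57 were in 1 KO cell. Myl2 had 5 and 20 UMIs (2.34, 0.89 to 4.11), Tnnc1 3 and 9 (1.93, -0.07 to 4.45) and Myl3 5 and 12 (1.61, -0.00 to 3.46). Tnnt1 was spread more widely, with 42 UMIs in 30 WT cells and 78 UMIs in 44 KO cells, or 23.6 and 55.8 CPM (1.24, 0.68 to 1.81). Mb, the gene outside the slow set, had 12 and 25 UMIs (1.40, 0.36 to 2.53), in 11 cells of each library. In KO 1 cell held 11 of the 25, and the mean over cells was 0.147 UMIs per 10000 in WT and 0.149 in KO. Per 100 fast UMIs, slow UMIs came to 4.59 in WT and 15.3 in KO (1.74, 1.29 to 2.20). The lower gene was Actn2, with 9 UMIs in WT and 1 in KO (-2.83, -8.28 to 0.03).

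The sums of the most abundant members in MuSC-like cells were within 2-fold, though single cells held much of some. Tpm1 was at 256 CPM in WT and 194 CPM in KO, Acta1 at 213 and 261 CPM, Ttn at 189 and 174 CPM, and Actc1 at 126 and 136 CPM. Of the KO UMIs, 1 cell held 184 of 190 for Actc1 and 165 of 243 for Ttn, and Actc1 was seen in 18 WT and 5 KO cells. Without the cell with the most UMIs of the 36 genes in each library the ratio of Ttn was -1.53, and without the 2 such cells that of Actc1 was -4.65. Myl1 (78.3 and 154 CPM, log2 ratio 0.98, 0.67 to 1.30) and Mylpf (126 and 212 CPM, 0.75, 0.49 to 1.0) were higher in KO over all cells. Without the same 2 cells of each library their ratios were -0.41 and -0.38, so that neither was higher, and that of Acta1 went from 0.29 to -0.44. Myh4 (45.6 and 28.6 CPM, -0.67, -1.26 to -0.11), Atp2a1 (101 and 65.8 CPM, -0.62, -1.0 to -0.25) and Actn3 (64.2 and 42.9 CPM, -0.58, -1.06 to -0.12) were lower. Myh4 was also the main heavy chain here, with 81.0% of 100 UMIs in WT (71.9 to 88.2) and 65.6% of 61 in KO (52.3 to 77.3), and Myh3 had 2 and 3 UMIs.

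A few cells held much of these sums. In KO, 1 cell held 737 UMIs of the 36 genes, or 26.0% of those of its class, among them 184 of Actc1, 165 of Ttn, 144 of Acta1 and 53 of Tnni1. It also held 172 UMIs of Myog and 78 of Mymx, genes of fusing myocytes. The next KO cell held 597 UMIs of the 36 genes, 21.1%, with 82 of Myl1, 55 of Acta1 and 0 of Myog. The highest WT cell held 293, or 9.08%, with 96 of Actc1, 86 of Acta1 and 63 of Myog. Without the 2 highest cells of each library, 5 of 29 genes tested were at least 2-fold higher (7.41% of all genes) and 4 lower (5.78%), the median was -0.48, Tnni1 fell under the minimum, and Tnnt1 (1.24), Mb (1.39), Myl2 (3.07), Myl3 (1.60) and Tnnc1 (2.51) stayed higher in KO. Both KO cells left out held 0 UMIs of Mb, so the KO cell with 11 of its 25 UMIs was still in that sum.

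**Figure D4:**
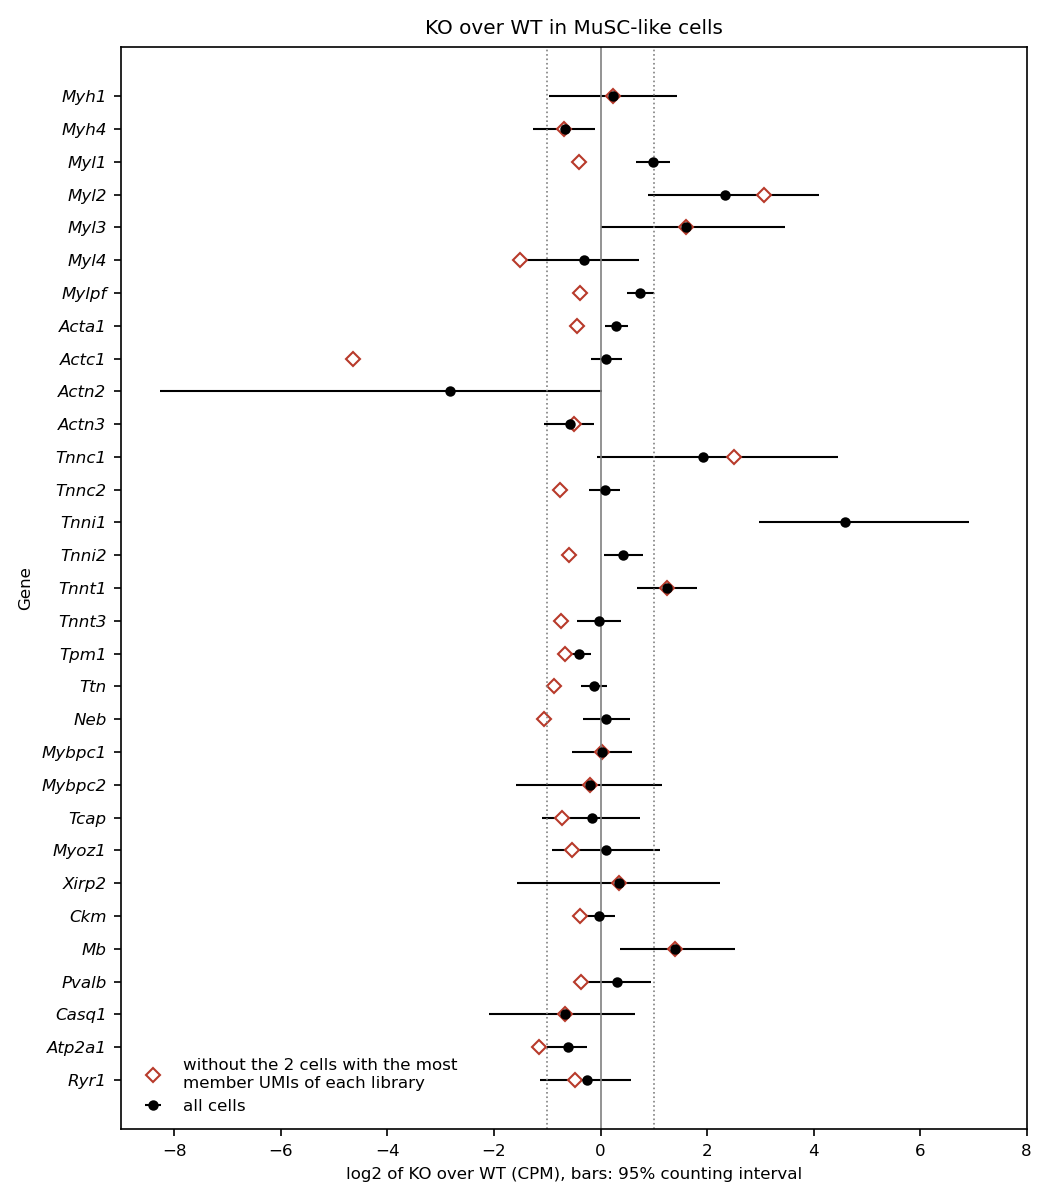
Log2 ratio of KO over WT (CPM of summed UMIs) of the 31 genes tested in MuSC-like cells, with 95% counting intervals (black), and the same without the 2 cells of each library with the most UMIs of the 36 genes (red diamonds). Dotted lines mark 2-fold; Actc1 moves from 0.11 to -4.65, while Tnnt1 stays at 1.24.

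MuSC-like cells with at least 1 UMI of the differentiation and fusion genes Myog, Mymk or Mymx were set beside the other MuSC-like cells to see which of the 36 genes went with differentiation. There were 16 such cells in WT and 2 in KO, and they were deeper than the rest (a median of 15473 against 6335 UMIs in WT), and the part of depth was not tested. The 36 genes took 0.384% of their UMIs in WT, against 0.141% in the other 227 cells. Actc1 was at 720 against 6.09 CPM in WT, 118-fold higher, while Ttn was at 888 against 48.7 CPM and Atp2a1 at 340 against 53.4 CPM. Neb (138 against 36.5 CPM), Tpm1 (606 against 186 CPM) and Acta1 (481 against 159 CPM) were higher by less. A single WT cell held 96 of the 214 Actc1 UMIs and 86 of the 143 Acta1 UMIs of the 16 cells, and without it Actc1 was 70.8-fold higher, Ttn 16.3-fold and Acta1 only 1.31-fold. Ckm (37.0 against 131 CPM), the fast troponin Tnnc2 (37.0 against 137 CPM) and the slow Mybpc1 (3.36 against 40.6 CPM) were lower, while the fast genes Actn3, Mylpf and Tnni2 were within 2-fold. Both WT UMIs and all 3 KO UMIs of Myh3 were in such cells. Of the KO values, nearly all came from the 1 cell with 737 UMIs, so that they are not set beside those of WT.

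In the other list, 21 genes were tested in MuSC-like cells. Of these, 6 were at least 2-fold higher in KO (7.53% of all genes) and 3 lower (5.33%). Tpm3, the slow and non-muscle tropomyosin, had 260 UMIs in WT and 557 in KO (log2 ratio 1.44, 1.23 to 1.66), in 149 and 188 cells. Tpm3 was higher in KO in other classes too, at 148 and 545 CPM in FAP-like (1.88), 286 and 805 CPM in endothelial-like (1.49) and 329 and 747 CPM in macrophage-like cells (1.18), and over all cells named as neither muscle nor MuSC at 223 and 620 CPM (1.47, 1.44 to 1.51). Pdlim3, a Z-disc protein, had 20 and 48 UMIs (1.61, 0.83 to 2.44). Tnnt2, the cardiac and embryonic troponin T, had 32 and 69 UMIs, with 68 of the 69 in 1 cell. Sln (1.76), Cav3 (1.15) and Cmya5 (1.51) were higher on fewer UMIs. Lmod2 had 70 UMIs in 11 WT cells and 6 in 1 KO cell (-3.20, -4.69 to -2.01), and Tmod1 (-1.24) and Cacng1 (-1.07) were also lower.

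RNA of these genes was also found in every other class, where most of these genes are not known to be expressed. Over the 4793 WT and 5494 KO cells named as neither muscle nor MuSC, the 36 genes took 0.0615% of UMIs in WT (0.0607 to 0.0623) and 0.0507% in KO (0.0501 to 0.0515), and 53.9% and 63.6% of the cells had at least 1 UMI of the 13 fast genes. Thinned to 1000 UMIs per cell, with 252 WT and 240 KO cells left out as shallower, the share was 17.7% in WT (16.6 to 18.8) and 21.2% in KO (20.1 to 22.4). The median depth was 6110 and 6360 UMIs. Fast-gene RNA made up more of shallow than of deep cells. It was at 903 CPM in WT cells under 1000 UMIs and 167 CPM in those with at least 10000, and at 1240 and 134 CPM in KO, while the mean number of fast UMIs per cell went from 0.623 to 2.46 in WT and from 0.90 to 1.96 in KO. Myh4 was again the main heavy chain, with 68.3% of 537 UMIs in WT (64.2 to 72.3) and 79.1% of 278 in KO (73.9 to 83.8). Slow UMIs per 100 fast UMIs were 7.64 and 7.83 (log2 ratio 0.04, -0.14 to 0.21), with an interval that spanned 0.

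In these cells 34 genes were tested. None was at least 2-fold higher in KO, against 2.73% of 16552 genes, and 7 were lower, against 3.26%, with a median log2 ratio of -0.25. The 7 were Myh1 (99 and 26 UMIs, -2.16, -2.85 to -1.53), Myh2 (47 and 13 UMIs, -2.09), Actn2 (80 and 27 UMIs, -1.80), Mb (280 and 110 UMIs, -1.58, -1.91 to -1.26), Ttn (392 and 170 UMIs, -1.44, -1.71 to -1.18), Mybpc1 (62 and 27 UMIs, -1.43) and Atp2a1 (387 and 202 UMIs, -1.17). The UMIs of Mb were spread over 206 WT and 94 KO cells with at most 7 in a cell, and those of Ttn over 266 and 125 cells with at most 10. For Actn2, T-like cells held 44 of the 80 WT UMIs and 18 of the 27 KO UMIs, and without them its ratio was -2.24 (-3.48 to -1.16) on 36 and 9 UMIs. The slow-set genes Tnnc1 (-0.16), Tnni1 (-0.15), Tnnt1 (0.00), Myl2 (-0.11) and Myh7 (-0.33) were not 2-fold apart here. Mb was at least 2-fold lower in KO in FAP-like (-1.07), endothelial-like (-1.67), macrophage-like (-1.81), tendon-like (-1.49) and pericyte-like (-1.61) cells, on 4 to 43 KO UMIs. Its interval spanned 0 in tendon-like (-3.56 to 0.21) and pericyte-like cells (-3.72 to 0.15). In Schwann-like cells Mb was within 2-fold (-0.38, -2.15 to 1.27). Without the 10 cells of each library with the most fast UMIs, 0 genes were higher (2.74% of all genes) and 8 lower (3.22%).

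Summed fast RNA was higher in KO in some classes and lower in others; the difference between classes was not tested. The 13 fast genes summed to 116 CPM in WT and 164 CPM in KO in FAP-like cells (log2 ratio 0.49, 0.40 to 0.59) and to 76.3 and 111 CPM in tendon-like cells (0.54, 0.35 to 0.73). They summed to 434 and 255 CPM in endothelial-like cells (-0.77, -0.85 to -0.69) and to 362 and 236 CPM in macrophage-like cells (-0.61, -0.71 to -0.52). Without the 10 cells of each class and library with the most fast UMIs the ratios were 0.46, 0.72, -0.58 and -0.28. The direction also changed with depth. In endothelial-like cells under 1000 UMIs the fast genes were at 851 CPM in WT and 1170 CPM in KO, from 1000 to 2000 UMIs at 682 and 745 CPM, and in those with at least 10000 UMIs at 421 and 132 CPM. Macrophage-like cells had 1100 CPM in both libraries under 1000 UMIs, 470 and 578 CPM from 1000 to 2000, 433 and 224 CPM from 5000 to 10000, and 178 and 172 CPM with at least 10000. FAP-like cells were higher in KO in every depth range, from 155 and 402 CPM under 1000 UMIs, on 1 and 4 UMIs, to 78.5 and 146 CPM with at least 10000. After thinning to 1000 UMIs, 10.1% of WT and 16.6% of KO FAP-like cells had a fast UMI, 29.1% and 27.7% of endothelial-like cells and 19.4% and 22.1% of macrophage-like cells, and of these 3 pairs the intervals were apart in FAP-like cells only. In endothelial-like cells 0 of 34 genes were at least 2-fold higher in KO (2.69% of all genes) and 11 lower (3.04%), among them Myh4 at 25.4 CPM in WT and 6.47 CPM in KO and Tcap at 20.2 and 5.94 CPM. In macrophage-like cells 0 of 32 were higher (3.28%) and 8 lower (3.63%), with Tnnt3 at 53.5 and 25.8 CPM. In FAP-like cells 2 of 31 were higher (3.30%), Myl1 (1.07) and Mylpf (1.02), with 14.4% and 16.2% of their KO UMIs in 1 cell, and 6 lower (3.76%), Ryr1, Myh1, Ttn, Casq1, Mybpc1 and Mb. In tendon-like cells 1 of 25 was higher (4.86%), Pvalb (1.21), and 6 lower (3.08%), from Myh1 (-2.49) to Tnnc1 (-1.11), each on 17 or fewer WT UMIs.

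In the smaller classes fewer of the genes could be tested, and the light chains Myl1 and Mylpf recurred among those higher in KO. In T-like cells 4 of 9 genes were at least 2-fold higher (7.0% of all genes), Myl1 (1.98), Mylpf (1.84), Ckm (1.49) and Acta1 (1.09), and 2 lower (10.4%), Actn2 (-1.31) and Tnnt3 (-1.02). In Schwann-like cells 4 of 16 were higher (5.06%), Myl1 (1.53), Pvalb (1.53), Tnni2 (1.21) and Mylpf (1.12), and 2 lower (4.72%), Atp2a1 (-1.38) and Ttn, with 31 UMIs in WT and 4 in KO (-2.75). In pericyte-like cells 1 of 15 was higher (7.77%), Mylpf (1.05), and 2 lower (5.55%), Mb (-1.61) and Tcap (-1.40). In dendritic-like cells 1 of 11 was higher (8.07%), Myl1 (1.40), and 0 were lower (5.48%).

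**Figure D5:**
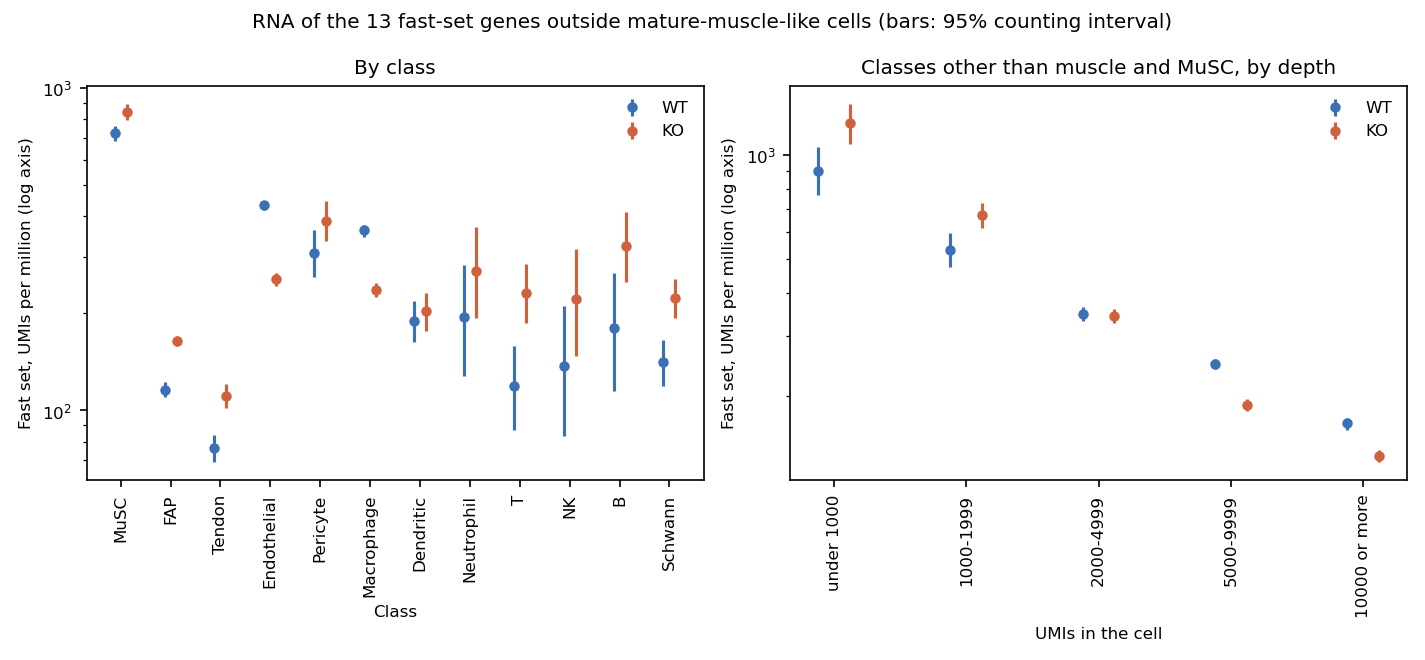
Summed level of the 13 fast genes in CPM (log axis) with 95% counting intervals, WT in blue and KO in orange, for each class other than mature-muscle-like (left) and for cells named as neither muscle nor MuSC by their depth (right). FAP-like and tendon-like cells are higher in KO (164 against 116 and 111 against 76.3 CPM), endothelial-like and macrophage-like cells lower, and the level drops with depth in both libraries (903 to 167 CPM in WT).

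RNA from a common source keeps its genes in the same ratio in every class, so each gene's UMIs per fast UMI were set against those of the mature-muscle-like cells of the same library. Where the gene was itself in the fast set, it was left out of the fast UMIs. The ratio of rare genes rests on few muscle UMIs, and the genes given here were chosen after their values were seen. The fast troponin Tnni2 kept near it in the larger classes. Per UMI of the other fast genes, Tnni2 was at 0.934 times its ratio in WT and 1.17 times in KO in FAP-like cells, 0.858 and 1.19 times in endothelial-like cells, and 0.912 and 1.09 times in macrophage-like cells. In dendritic-like cells, in contrast, Tnni2 was at 6.24 and 4.43 times that ratio, with 99.6 CPM in WT and 80.0 CPM in KO and a UMI in 43.1% and 38.7% of cells. The calcium channel gene Ryr1 was further out in the same class, at 273 and 162 times, with 53.5 and 46.0 CPM and UMIs in 30.2% and 29.0% of cells. In macrophage-like cells Ryr1 was at 15.8 CPM in WT and 18.4 CPM in KO, 42.3 and 55.8 times its muscle ratio, against 1.49 and 0.234 CPM in FAP-like cells, whose median depth was higher (7657 and 8334 against 5540 and 5585 UMIs).

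Other members also stood out, and not in a single class only. Over all cells named as neither muscle nor MuSC, 17 of 34 genes were at least 2-fold above their muscle ratio in both libraries. The genes named below were among these 17. The share of all genes past this cut is not given, so the count is not read as particular to these genes. Tpm1, which also makes smooth-muscle and non-muscle tropomyosins, was at 1800 CPM in WT and 1140 CPM in KO in pericyte-like cells, 27.1 and 15.6 times its muscle ratio, and at 475 and 434 CPM in tendon-like cells, 28.8 and 20.6 times. It gave most of the member UMIs of pericyte-like cells, which were 0.242% of UMIs in WT and 0.185% in KO with it and 0.0612% and 0.0705% without it. Actn2 was at 114 CPM in WT (44 UMIs in 31.7% of cells) and 45.9 CPM in KO (18 UMIs in 11.8% of cells) in T-like cells, the largest of its levels outside the mature-muscle-like cells, 662 and 448 times its muscle ratio. Myl4 was at 59.9 and 29.5 CPM in B-like cells, from 8 and 6 UMIs, and Ldb3 at 24.1 and 15.8 CPM in pericyte-like cells, from 11 and 8 UMIs. Tnni1 had 9 and 11 UMIs in Schwann-like cells, or 8.44 and 11.9 CPM.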

How the data were processed

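Per the labels and the study's methods, the authors digested the muscles, captured cells with a 10x 5′ kit, aligned reads to mm10 with Cell Ranger (version 2.1.1 in the submitters' processing notes, another in the study's methods) and removed doublets and cells high in mitochondrial RNA in Seurat. The deposited values were the natural log of 1 plus UMIs per 10000 of each cell. The log was undone to whole UMIs (largest distance from a whole number 0.247 UMIs). Cells were clustered without the 36 genes, giving 27 clusters, of which 7 got no name. The Harmony step was rewritten from its published steps, and Louvain clustering was run in igraph 0.11.9 (seed 1). Naming rules were set after the clusters were seen. Scrublet called 101 WT and 109 KO cells, which were kept. UMIs were summed per class and library, and the ratio of KO to WT was taken for genes with at least 10 UMIs over both, with 3 UMIs in place of 0 in bounds. A gene at least 2-fold apart was called. Intervals are exact at 95% (scipy 1.17.1). With 1 library per genotype no test was made. The ratio script was tested on simulated data. All members were eligible to be named, and other genes by a written list. Members and lists were chosen with earlier results of these data known. Analyses that leave out single cells were chosen after seeing the data. Motifs and identities were computed with Biopython 1.88.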

Additional observations from a re-analysis of the deposited data

Results flagged for a closer look

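Slow-fiber genes differed in direction between muscle classes. Tnni1 had a log2 ratio of KO to WT of -2.64 in mature-muscle-like cells and 4.59 in MuSC-like cells, Tnnt1 of -1.51 and 1.24, and Mb of -2.14 and 1.40, with every counting interval on its own side of 0. The difference between classes was not tested, since each class had 1 library per genotype. Single cells held most of some counts, since 17 of 18 WT UMIs of Tnnt1 and 201 of 239 of Mb in mature-muscle-like cells were in 1 cell each, as were 53 of 57 KO UMIs of Tnni1 in MuSC-like cells, and without those WT cells the ratio was 2.63 for Tnnt1 and 0.08 for Mb, so that for both the opposite directions rest on 1 cell.

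Summed fast RNA also went in opposite directions, with log2 ratios of 0.49 in FAP-like and 0.54 in tendon-like cells and of -0.77 in endothelial-like and -0.61 in macrophage-like cells. This difference was not tested either, for the same reason.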

How the results depend on the processing

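In mature-muscle-like cells, weighting every cell alike gave a median of 0.19, 1 gene higher and 7 lower in KO, and Myh4 at 63.0% of myosin heavy chain UMIs in WT and 88.7% in KO. Leaving out cells under 1000 UMIs gave 2 genes higher, leaving out the deepest cell of each library 5, and leaving out the second deepest 1, with Myh4 at 81.8% in WT and Myl3 turned to 1.71. Without the WT cell led by Myh7 2 genes were higher and Tnnt1 turned to 2.63, and without the one led by Myh1 1 was higher, Myh1 turned to 0.45 and Myh4 was at 82.9% in WT. In MuSC-like cells 0 genes were lower without the Harmony step and with Scrublet-called cells left out, 4 with every cell weighted alike, and 3 higher and 0 lower at a minimum of 30 UMIs. Without the cell with the most member UMIs 5 were lower, and without the 2 such cells 4, with a median of -0.48. The cause was not tested, beyond the cells left out. In cells named as neither muscle nor MuSC the count lower in KO stayed at 7 or 8. Of the single-gene ratios recomputed, 396 of 471 in mature-muscle-like cells stayed within their counting interval, as did 326 of 358 in MuSC-like cells and 359 of 374 in the pool. In mature-muscle-like cells 72 moved outside it and 3 turned to the other direction. These counts include settings that cannot move a ratio, such as those that change only the minimum of UMIs. Leaving out Scrublet-called cells also removed no mature-muscle-like cell. No paired analysis was possible because each genotype had 1 library, and for the same reason no library could be left out. The slow genes, Myh3 and Myh8 had few UMIs in few cells, and the part of depth in this was not tested.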
